A study of Mus musculus with 2 samples.

Results

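Among cells of the mouse corneal epithelium that had been sorted as positive for a Cyclin B1 reporter, a small number carried no RNA of 7 genes of the cell cycle. These genes were Mki67, Top2a, Ccnb1, Ccna2, Cdk1, Birc5 and Cenpf, called the proliferation genes here. The members were thus chosen by their UMI counts of these 7 genes, and those counts are no result here. A cell belonged to this group when it had at least 500 detected genes, under 20% mitochondrial UMIs and at least 3000 UMIs in all, and 0 UMIs over the proliferation genes together. A UMI, or unique molecular identifier, marks 1 captured RNA molecule. Of 6752 barcodes, 5116 passed the filters on genes, mitochondrial share and UMIs, and 162 of these were members, 65 of 2671 in library 1 and 97 of 2445 in library 2. The comparison cells had 5 or more proliferation UMIs (4620 cells). For each member, 1 of them was drawn from the same library with nearly the same total UMIs.

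The corneas came from CycB1-GFP mice, whose green fluorescent protein reports Cyclin B1, and both libraries carry that genotype. The epithelium was freed with Dispase, dissociated with trypsin and sorted for live GFP-positive cells, so the sort gate set which cells could be seen. The labels give 1 group of 2 replicates with no treatment, and they state neither age nor strain. Nothing in the labels says that the replicates came from separate mice. A p-value here rests on how far the difference between states varied between the 2 libraries, and that variation may be technical. The barcodes' number, not a label, separates the libraries, and which number belongs to which replicate is not known. The gene table used here lists no GFP, so the reporter itself could not be read in these cells.

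The corneal epithelium is renewed from basal cells that divide, move up and differentiate, while stem cells of the limbus, the rim between cornea and conjunctiva, feed the basal layer. Basal cells attach to the basement membrane by integrins and hemidesmosomes and make Krt5 and Krt14. Cells that leave the cycle switch on genes of barrier formation, such as tight junction proteins, membrane mucins and precursors of the cell envelope. Krt12 is the keratin of the corneal lineage, and Krt15 is high in limbal and conjunctival epithelium. Cyclin B1 protein is made in G2 and destroyed at the end of mitosis, whereas GFP and messenger RNA have lifetimes of their own.

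Zero counts depend on depth. In cells of 3000 to 4000 UMIs, 27 of 285 cells of library 1 (9.47%, exact 95% interval 6.34 to 13.5%) and 34 of 212 of library 2 (16%, 11.4 to 21.7%) had no proliferation UMI. With 9000 UMIs or more the shares were 5 of 415 cells (1.20%, 0.392 to 2.79%) and 5 of 387 (1.29%, 0.421 to 2.99%). These intervals, and all others on shares, are Clopper-Pearson and cover counting error only. After matching, members and comparison cells had medians of 4416 and 4415 UMIs in library 1, and 4533 and 4530 in library 2. The comparison cells then carried a median of 14 and 17 proliferation UMIs. Members had fewer detected genes at that depth, with medians of 1637 and 1672 against 1772 and 1904. Their median mitochondrial share was 2.25% and 3.74% against 2.76% and 3.90%.

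The name "without proliferation RNA" holds for the 7 genes that chose the cells and not for every gene of the cycle. With each cell thinned to 3000 UMIs, a list of 47 further G2/M genes gave a median of 4 UMIs per member in both libraries, against 30 and 33 in the matched cells. At least 1 such UMI was present in 63 of 65 and 95 of 97 members. The list of 42 S-phase genes gave medians of 2 UMIs in both libraries against 11 in both. The members are therefore called cells with 0 proliferation UMIs below. Since these lists move with the genes of the rule, their values describe the cells and are no test of them.

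Slurp1, Hist1h2bc and Rhob had been given as marks of these cells with earlier results of these data known, so their values are also a description. Slurp1, a secreted Ly6-type protein of the corneal surface, stood at 1695 and 2363 CPM (CPM, its UMIs in the summed cells scaled to a common total) in the members of library 1 and 2, and at 713 and 590.3 CPM in the matched cells. The log2 fold change was 1.80 ± 0.21 (SE). Rhob, a small GTPase of the actin cytoskeleton, stood at 214 and 136 CPM against 114 and 45.9 CPM, a log2 fold change of 1.36 ± 0.24. Hist1h2bc, an H2B gene whose transcript can be polyadenylated, stood at 96.3 and 67.8 CPM against 36.1 and 19.9 CPM, a log2 fold change of 1.74 ± 0.35. For each of the 3 genes both member libraries lay above both matched libraries. The states did not overlap in either direction for 58% of all 5515 genes tested, so this by itself is common. In GENCODE M21 on GRCm38 the genes lie at chr15:74724318-74728034, chr12:8497661-8500009 and chr13:23684199-23692908, and no other gene on the same strand overlaps them.

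Not every member carried these marks. Slurp1 was detected in 36 of 65 (55.4%, 95% interval 42.5 to 67.7%) and 48 of 97 (49.5%, 95% interval 39.2 to 59.8%) members at 3000 UMIs, and in 28 of 65 (43.1%, 95% interval 30.8 to 56%) and 33 of 97 (34%, 95% interval 24.7 to 44.3%) matched cells. Without thinning these shares were 55.4% and 51.5% against 52.3% and 45.4%, so the states differed more in UMIs per cell than in the share of cells with Slurp1. Hist1h2bc was sparse, with UMIs in 15 of 65 (23.1%) and 13 of 97 (13.4%) members against 6 of 65 (9.23%) and 5 of 97 (5.15%) matched cells. Rhob was found in 32 of 65 (49.2%) and 32 of 97 (33%) members against 20 of 65 (30.8%) and 16 of 97 (16.5%) matched cells. As a gauge of free RNA, 38 cells with 3 or more immune genes (median 4643.5 UMIs, unthinned) had Slurp1 in 7.89%, Hist1h2bc in 5.26% and Rhob in 23.7%. These 38 cells had Krt14 in 71.1%, so they are no clean background.

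**Figure D1:**
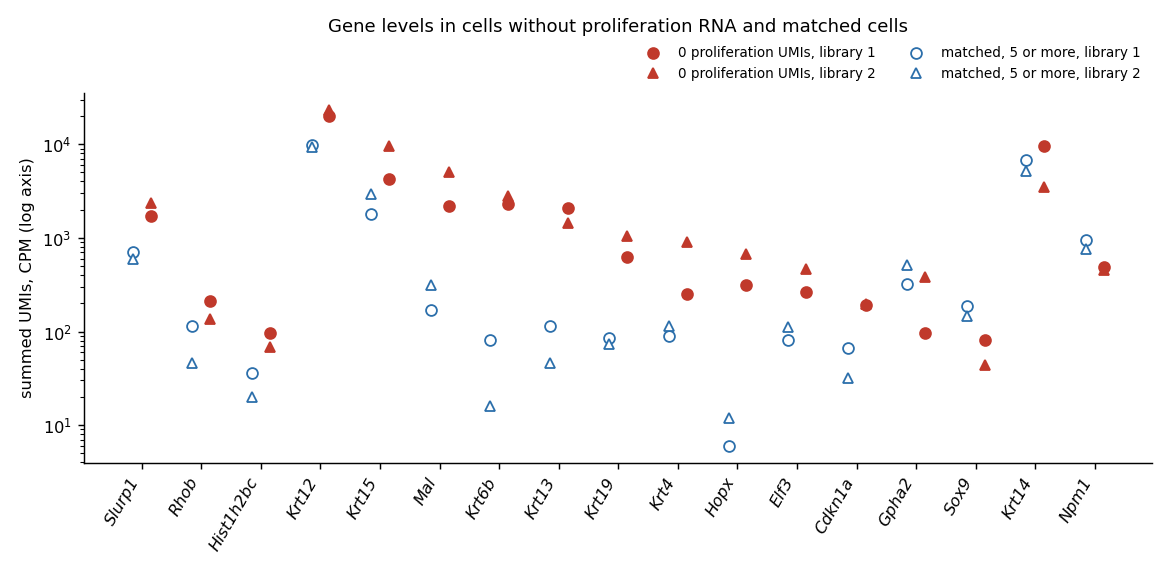
Level of 17 genes in CPM of the summed UMIs (log axis) in cells with 0 proliferation UMIs (filled red) and in depth-matched cells with 5 or more (open blue); circles are library 1 and triangles library 2, 1 sum of cells each. Slurp1, Rhob, Hist1h2bc and the keratins Krt6b, Krt13 and Krt19 lie higher in both member libraries, whereas Krt14 is higher in library 1 (9687 against 6846 CPM) and lower in library 2 (3473 against 5233 CPM).

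The members belonged to both the Krt12 and the Krt15 lineage. Cells with more Krt12 than Krt15 UMIs at 3000 UMIs, called Krt12-dominant, made up 52 of 65 (80%, 95% interval 68.2 to 88.9%) members of library 1 and 55 of 97 (56.7%, 95% interval 46.3 to 66.7%) of library 2. Among matched cells they made up 42 of 65 (64.6%, 95% interval 51.8 to 76.1%) and 48 of 97 (49.5%, 95% interval 39.2 to 59.8%). The members' share was the higher one in both libraries, but within each library the intervals of the states overlap. The share of Krt12-dominant cells also moves with depth: it was 75.4% and 66.7% over all cells with 5 or more proliferation UMIs, whose median depth was 6215 and 6437.5 UMIs. Against cells with 1 to 4 proliferation UMIs, matched in the same way, the shares were close, at 75.4% and 55.7%.

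Krt15-dominant members numbered 12 in library 1 and 42 in library 2. Gpha2 is a glycoprotein hormone subunit that marks limbal cells. Krt15-dominant cells with a Gpha2 UMI made up 4 of 65 (6.15%, 95% interval 1.7 to 15%) and 26 of 97 (26.8%, 95% interval 18.3 to 36.8%) of the members. In the matched cells they made up 19 of 65 (29.2%, 95% interval 18.6 to 41.8%) and 45 of 97 (46.4%, 95% interval 36.2 to 56.8%). The members' share was the lower one in both libraries, and the intervals overlap in library 2 only. Cells with 3 or more UMIs of the mucosal keratins Krt4, Krt13 and Krt19 made up 16 of 65 (24.6%, 95% interval 14.8 to 36.9%) and 40 of 97 (41.2%, 95% interval 31.3 to 51.7%) members, and 5 of 65 (7.69%, 95% interval 2.54 to 17%) and 10 of 97 (10.3%, 95% interval 5.06 to 18.1%) matched cells. Here the members' share was the higher one in both libraries, and the intervals overlap in library 1 only. Of these members, 10 and 15 were Krt12-dominant, against 1 and 1 of the matched cells, so Krt12 and mucosal keratin RNA occurred in the same barcodes.

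Across all genes, members differed from matched cells in surface, mucosal and stress keratin genes on the higher side and in cycle, nucleolar and some limbal genes on the lower side. UMIs were summed per library and state, and the 4 sums were tested with edgeR's quasi-likelihood test with the library as a block and Benjamini-Hochberg adjustment at 0.05. Of 5515 genes tested, 703 (12.7%) were higher and 616 (11.2%) lower, 23.9% in either direction, and the median log2 fold change over all of them was 0.01. DESeq2 called 149 higher (2.7%) and 142 lower (2.57%), 5.28% in either direction, all of them among edgeR's calls. The model has 1 residual degree of freedom, and its spread is shared over genes. All rises and falls given below are on the log2 scale. With all 65 or 97 members of a library in 1 sum, a few cells can carry a gene, and this is stated below for some genes. A sum also does not tell more cells with a transcript from more transcripts per cell.

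Surface differentiation genes were higher together. Of 56 listed genes, 31 could be tested, and all 31 were higher and 0 lower, against 12.7% and 11.2% of all genes. The 31 include the given marker Slurp1. Their median log2 fold change was 1.81, and DESeq2 called 18 of them. The test keeps genes with enough UMIs in at least 1 state, so the 25 untested genes belong in the count too: 7 had no UMI, and the other 18 held 140 and 173 UMIs in the members and 27 and 35 in the matched cells. A gene that passed only through the members had to differ, so the sum over all 56 genes is given beside the count. It was 21133 and 30397 CPM in members and 8417 and 7976 CPM in matched cells. Mal, a membrane protein of apical transport, stood at 2176 and 4996 CPM against 172 and 315 CPM, a log2 fold change of 4.01 ± 0.23 (SE; edgeR adjusted p = 2.72e-13). Upk3bl, a uroplakin-like membrane protein, stood at 1963 and 2951 CPM against 726 and 861 CPM, a log2 fold change of 1.78 ± 0.20 (SE; edgeR adjusted p = 1.25e-07). Lypd2, a Ly6-type protein, stood at 3419.8 and 5618 CPM against 1586 and 1996 CPM and rose by 1.47 ± 0.21 (SE; edgeR adjusted p = 3.51e-06). In all 3 genes both member libraries lay above both matched libraries, which by itself is common, since 58% of all genes tested did not overlap.

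Junction genes of the same list moved with them. Cldn4, a tight junction claudin, stood at 241 and 233 CPM against 84.3 and 17.9 CPM, a log2 fold change of 2.57 ± 0.35 (SE; edgeR adjusted p = 8.78e-05). Without the library block it was not called (edgeR adjusted p = 0.0646). Cldn7 stood at 689 and 759.6 CPM against 274 and 197 CPM and rose by 1.81 ± 0.20 (SE; edgeR adjusted p = 7.03e-08). The desmosomal cadherins Dsc2 and Dsg1a rose by 1.79 ± 0.20 (SE; edgeR adjusted p = 1.25e-07) and 3.12 ± 0.39 (SE; edgeR adjusted p = 5.57e-07), and the desmosomal plaque gene Dsp by 0.88 ± 0.19 (SE; edgeR adjusted p = 0.00119). Dsp was the abundant one of the 3, at 1608 and 1904 CPM against 987 and 1159 CPM. Emp1, an epithelial membrane protein, stood at 1213 and 1645 CPM against 482 and 317 CPM, and Lgals3, which encodes the lectin galectin-3, at 1888 and 1949.9 CPM against 732 and 524 CPM. Their log2 fold changes were 2.03 ± 0.22 and 1.80 ± 0.21.

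Transcription factors of epithelial differentiation were among the 31 genes. Elf3, an ETS factor of epithelia, stood at 265 and 461 CPM against 81.3 and 112 CPM, a log2 fold change of 2.07 ± 0.21 (SE; edgeR adjusted p = 1.16e-08). Grhl1, a Grainyhead factor, rose by 2.64 ± 0.46 (SE) and Ovol1 by 2.49 ± 0.64 (SE; edgeR adjusted p = 0.00449), both from few UMIs. Grhl1 had 18 and 34 UMIs in the members against 5 and 4. It passed the filter through the members alone and is given without a p. Klf4 stood at 1027 and 953 CPM against 786 and 479 CPM and rose by 0.86 ± 0.20 (SE; edgeR adjusted p = 0.00164). Without the library block Klf4 was not called (0.072). Of the Krueppel-like factors, 4 of 8 tested genes were higher and 0 lower (median log2 fold change 0.44), against 12.7% and 11.2% of all genes. The other called ones were Klf6 (0.68), Klf3 (0.54) and Klf5 (0.52), whereas Klf7 (-0.44) and Klf9 (0.37) did not pass. DESeq2 called 1 of the 4, Klf4. The call of Klf5 ended under 8 alternatives, among them comparison with cells of 1 to 4 proliferation UMIs (0.13; edgeR adjusted p = 0.704), and that of Klf3 under 6, among them thinning (0.26; 0.477). DESeq2 did not call Grhl1 (adjusted p = 0.122) and Ovol1 (0.454).

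The genes with the largest fold changes were nearly silent in the matched cells. Psca, a Ly6-type surface antigen at chr15:74714839-74717069, stood at 581 and 1866 CPM in members, and no UMI was found in either set of matched cells. Set against a floor of 3 UMIs over the group, it was at least 376-fold higher. Having passed the filter through the members alone, it is given without a p. This RNA came from few cells: 6 members of library 1 and 20 of library 2 had Psca, and the 5 richest held 99.5% and 50% of its UMIs. Asprv1, a protease of the upper epidermis, stood at 786 and 2913 CPM against 0 and 7.98 CPM and rose by 8.82 ± 0.39 (SE). It too passed the filter through the members alone and is given without a p. It was found in 10 and 38 members, and the 5 richest held 97.7% and 47.3%. Against cells with 1 to 4 proliferation UMIs neither gene was called, with log2 fold changes of 2.98 (edgeR adjusted p = 0.528) for Psca and 2.84 (0.531) for Asprv1. Psca was not called without matching (0.31) or without the library block (0.0531) either. In library 1 such genes thus rest on about 5 cells, while in library 2 they are spread over more.

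Other genes of this kind had a smaller yield. The membrane mucin Muc4 stood at 328 and 668 CPM against 6.02 and 0 CPM, and the ratio of its UMIs was 222 (95% interval 61.1 to 1839, counting error only). It was detected in 14 of 65 (21.5%, 95% interval 12.3 to 33.5%) and 36 of 97 (37.1%, 95% interval 27.5 to 47.5%) members, in 1 of 65 and 0 of 97 matched cells, and in 0 of the 38 cells with immune genes. Muc20, also a membrane mucin, was at least 23-fold higher. Hopx, a small homeodomain protein, stood at 316 and 678 CPM against 6.02 and 12 CPM and rose by 5.90 ± 0.31 (SE). Hopx also passed the filter through the members alone and is given without a p. The remaining genes of the 12 with the largest rise were Nccrp1, Ly6g6c, Ifit1bl1, Prss32, Prss27, Cysrt1 and Krt6b. Against the floor, Nccrp1 was at least 95-fold, Ly6g6c 84.7-fold, Ifit1bl1 60.7-fold and Prss32 17.3-fold higher. Nccrp1 overlaps Samd4b on the same strand in the annotation, so reads of both cannot be told apart here. DESeq2 left Psca, Muc20, Nccrp1, Ly6g6c, Ifit1bl1, Prss32 and Cysrt1 uncalled, with adjusted p from 0.0997 to 0.545.

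**Figure D2:**
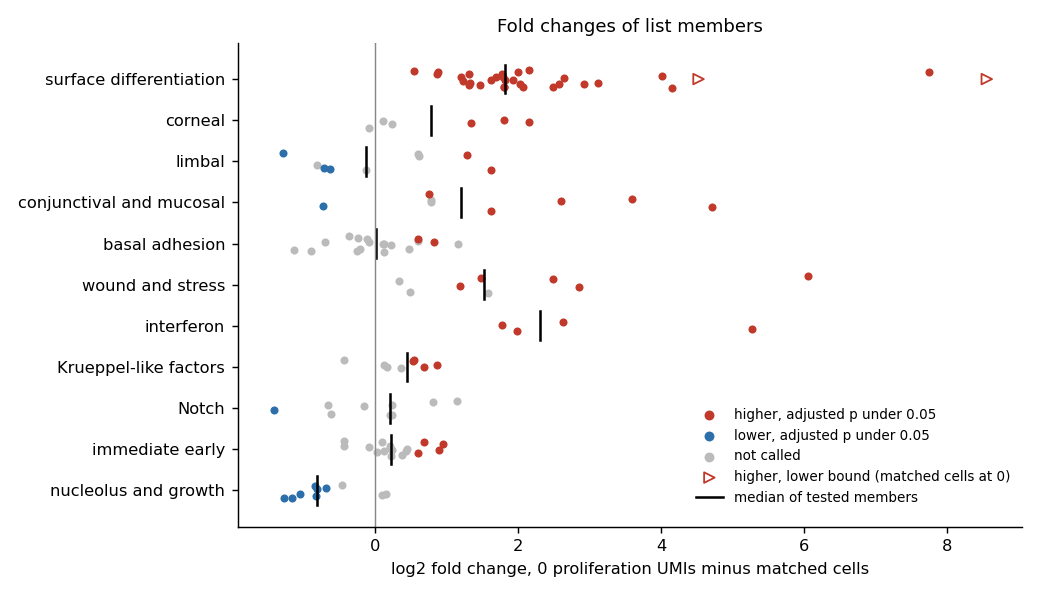
Log2 fold change of the tested members of 11 gene lists in cells with 0 proliferation UMIs against depth-matched cells, 1 point per gene; red is higher and blue lower at an edgeR adjusted p under 0.05, grey is not called, open triangles are lower bounds for genes without UMIs in the matched cells, and black bars are medians. All 31 surface differentiation genes lie to the right of 0, and 7 of 10 nucleolar and growth genes are lower.

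The sequences upstream of genes that rose or fell together are shown for a motif known for each group. Windows held the 250 bases before the annotated start, from RefSeq on GRCm38.p6, and 19 of the 31 surface genes matched, with 24 windows. The 4 motifs below were searched on both strands, namely the AP-1 site TGANTCA, the Grainyhead site AACCNGTT, the CCAAT box, and TTTGAA, the core of the cell cycle homology region. No motif contains another. An AP-1 match stood in 7 of the 24 windows (29.2%), from the 5 genes Cldn4, Dmkn, Emp1, Sbsn and Sprr1a, and in 6.75% of 32851 windows of all genes. The Grainyhead match stood in 1 of the 24 windows and in 1.79% of all. These are matches of letters, not measured sites. The windows of 3 surface genes with AP-1 matches, in capitals, read as follows, 5′ to 3′ on the gene's strand. Sprr1a (chr3:92485882-92486131, minus strand) encodes a precursor of the cornified envelope.
Sprr1a: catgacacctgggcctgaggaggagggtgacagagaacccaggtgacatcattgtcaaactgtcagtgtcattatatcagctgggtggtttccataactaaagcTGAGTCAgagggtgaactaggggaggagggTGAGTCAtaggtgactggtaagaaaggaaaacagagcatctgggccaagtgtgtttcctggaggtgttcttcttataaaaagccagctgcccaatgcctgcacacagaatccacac
Cldn4 (chr5:134946935-134947184, minus strand) has its matches far from the start.
Cldn4: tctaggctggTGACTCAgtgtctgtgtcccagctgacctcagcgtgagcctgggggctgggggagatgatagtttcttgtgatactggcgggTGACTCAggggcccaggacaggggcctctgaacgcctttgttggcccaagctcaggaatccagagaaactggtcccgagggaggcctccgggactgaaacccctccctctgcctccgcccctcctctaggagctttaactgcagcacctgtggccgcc
Emp1 (chr6:135362681-135362930, plus strand) has 1 of its 2 matches close to the start.
Emp1: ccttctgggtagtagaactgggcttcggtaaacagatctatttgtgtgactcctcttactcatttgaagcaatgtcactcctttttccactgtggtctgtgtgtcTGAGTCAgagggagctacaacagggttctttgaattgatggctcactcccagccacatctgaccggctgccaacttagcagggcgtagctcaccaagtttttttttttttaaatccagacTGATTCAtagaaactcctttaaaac
Only AP-1 matches are in capitals in these 3 windows, although that of Emp1 also holds TTTGAA and that of Sprr1a also holds CCAAT. Kif22 (chr7:127042421-127042670, minus strand), a mitotic kinesin that fell, is shown with its TTTGAA and CCAAT matches in capitals. Where these lie on the other strand, they read as their reverse complements TTCAAA and ATTGG.
Kif22: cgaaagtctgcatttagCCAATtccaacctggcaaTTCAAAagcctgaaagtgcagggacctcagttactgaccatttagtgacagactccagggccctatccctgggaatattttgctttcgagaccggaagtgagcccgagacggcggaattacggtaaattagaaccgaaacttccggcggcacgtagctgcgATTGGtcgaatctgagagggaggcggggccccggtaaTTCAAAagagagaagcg
Among the 12 genes with the largest fall, 10 had a window, and 5 of their 12 windows held TTTGAA (41.7%, against 16% of all windows) and 6 held CCAAT (50%, against 33.8%). The 12 genes with the largest rise had 11 windows, of which 1 held TTTGAA (9.09%) and 5 held CCAAT (45.5%). CCAAT was thus about as frequent in genes that rose most. Of the 24 windows of surface genes, 3 held TTTGAA (12.5%) and 4 held CCAAT (16.7%).

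Mucosal keratins were higher in members than in matched cells. Krt13, a keratin of wet stratified epithelia, stood at 2080.2 and 1447 CPM against 114 and 45.9 CPM, a log2 fold change of 4.71 ± 0.25 (SE; edgeR adjusted p = 6.51e-14). Krt19, of simple and mucosal epithelia, stood at 629 and 1059 CPM against 84.3 and 73.8 CPM and rose by 3.59 ± 0.24 (SE; edgeR adjusted p = 3.86e-12). Krt4, the partner of Krt13, stood at 253 and 913 CPM against 90.3 and 116 CPM and rose by 2.59 ± 0.27 (SE; edgeR adjusted p = 2.73e-07). At 3000 UMIs, Krt4 was detected in 8 of 65 and 30 of 97 members against 8 of 65 and 20 of 97 matched cells. In library 1 its higher sum thus did not come from more cells with Krt4. Krt19 was detected in 13 of 65 and 33 of 97 members against 5 of 65 and 12 of 97 matched cells. In all, 5 of the 8 conjunctival and mucosal genes were higher and 1 was lower, with a median of 1.20, against 12.7% and 11.2% of all genes. The others that passed were Krt7 (1.62) and the lipoxygenase Alox12e (0.75), while Wfdc2, a secreted defence protein, fell by 0.73 on the log2 scale. DESeq2 called 4 higher and 0 lower, leaving out Alox12e (adjusted p = 0.806) and Wfdc2 (0.206). The call of Alox12e also ended with thinning (0.09; edgeR adjusted p = 0.879) and against cells with 1 to 4 proliferation UMIs (0.26; 0.454), and in library 1 it was found in 1 of 65 members against 6 of 65 matched cells. Without the library block, Krt7, Krt4 and Alox12e were not called (0.44, 0.109 and 0.771). Krt8 and Krt18 did not pass, at 0.77 and 0.78. Krt8 stood at 39.1 and 249 CPM against 81.3 and 106 CPM, lower in the members of library 1 and higher in those of library 2, and it was called higher under 6 alternatives, among them the fit without matching (1.25; edgeR adjusted p = 3.18e-08) and with matching within the keratin class (0.87; 0.00773). Krt13 UMIs were found in 18 of 65 and 40 of 97 members at 3000 UMIs and in 15.8% of the 38 cells with immune genes (unthinned). In library 1 the 5 richest members held 82.1% of the Krt13 UMIs. Against cells with 1 to 4 proliferation UMIs, the log2 fold change of Krt13 was 2.46 and not called. The goblet cell list was almost empty, with 1 of 4 genes (Agr2) tested and 0 called.

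Wound and stress keratins were higher as well. Krt6b, a keratin of stressed and hyperproliferative epithelium, stood at 2312 and 2813 CPM against 81.3 and 16 CPM, a log2 fold change of 6.05 ± 0.40 (SE; edgeR adjusted p = 7.54e-08). Krt6a stood at 5404 and 4446 CPM against 1529 and 361 CPM and rose by 2.85 ± 0.34 (SE; edgeR adjusted p = 2.39e-05). Krt6a and Krt6b are close copies, and how reads shared by them were counted is not given in the sources used here. Krt16, their type I partner, stood at 1294 and 283 CPM against 376 and 19.9 CPM and rose by 2.49 ± 0.31 (SE; edgeR adjusted p = 3.47e-05). Against cells with 1 to 4 proliferation UMIs, Krt16 had a log2 fold change of 0.28 (edgeR adjusted p = 0.371) and was not called. Without the library block, the edgeR adjusted p was 0.583 for Krt16, 0.165 for Krt6a and 0.551 for Hspa1b. The heat shock genes Hspb1 and Hspa1b rose by 1.48 ± 0.20 and 1.19 ± 0.21. In this list 5 of 8 tested genes were thus higher and 0 lower, against 12.7% and 11.2% of all genes. The alarmins S100a8 and S100a9 did not pass (S100a8 was called higher under 3 alternatives), and their libraries went opposite ways: S100a9 stood at 310.1 and 1.99 CPM in members against 159.6 and 51.8 CPM.

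Interferon-stimulated genes were higher in the members of both libraries, more so in absolute terms in library 2. Isg15, a ubiquitin-like modifier, stood at 87.3 and 508 CPM against 39.1 and 126 CPM, a log2 fold change of 1.98 ± 0.23 (SE; edgeR adjusted p = 1.89e-07). Ifit3 had 13 and 66 UMIs in members and 1 UMI in each set of matched cells, a ratio of 39.5 (95% interval 10.6 to 332, counting error only). All 4 tested genes of 5 listed were higher (Ifit1 2.63, Irf7 1.77), with a median log2 fold change of 2.31, against 12.7% of all genes higher. Apart from Isg15 the list had few UMIs in matched cells, and a gene that passed the filter only through the members had to differ. The count is therefore a description. The sum over all 5 genes was 181 and 897 CPM in members and 57.2 and 179 CPM in matched cells. DESeq2 called 2 of the 4, and without the library block Isg15, Ifit1 and Irf7 were not called (edgeR adjusted p = 0.43, 0.132 and 0.156).

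The corneal list was split between keratin, surface and crystallin genes. Krt12 stood at 19826 and 23191 CPM in members against 9754 and 9287 CPM, a log2 fold change of 1.34 ± 0.22 (SE; edgeR adjusted p = 3.66e-05). Gsta4, a glutathione transferase, stood at 3802 and 6607 CPM against 1307 and 1230.4 CPM and rose by 2.16 ± 0.23 (SE; edgeR adjusted p = 3.08e-08). The corneal crystallin enzymes Aldh3a1 and Tkt were not called, with log2 fold changes of 0.12 ± 0.21 (SE) and -0.09 ± 0.21, and neither was Pax6, the master regulator of eye development, at 0.24 ± 0.18. Aldh3a1 stood at 5906 and 5898 CPM against 5756 and 6485 CPM. Its libraries thus lie within a narrow range, while Krt12 and Gsta4 separate the states in both, as 58% of all genes tested did in either direction.

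Limbal genes did not move as a group. Of 9 tested, 2 were higher, Krt15 and Krt17, and 3 were lower, Sox9, Gpha2 and Ifitm3. DESeq2 called 1 of the 9 higher and 0 lower. The call of Ifitm3 ended with matching within the keratin class (edgeR adjusted p = 0.183) and without the library block (0.0852). That of Krt17 ended with 3 matched cells per member (edgeR adjusted p = 0.132) and without the library block (0.0838). Over all genes 12.7% were higher and 11.2% lower. Krt15 stood at 4224 and 9478 CPM against 1818 and 2955 CPM, a log2 fold change of 1.62 ± 0.21 (SE; edgeR adjusted p = 1.28e-06). Yet at 3000 UMIs Krt15 was detected in 27 of 65 and 54 of 97 members against 37 of 65 and 61 of 97 matched cells. The higher sum thus came from more Krt15 UMIs per positive cell, not from more cells with Krt15. Sox9, the transcription factor named in the series title as a mark of limbal stem cells, stood at 81.3 and 43.9 CPM against 187 and 146 CPM, a log2 fold change of -1.29 ± 0.26 (SE; edgeR adjusted p = 0.000416); DESeq2 gave an adjusted p of 0.235. Against cells with 1 to 4 proliferation UMIs Sox9 was not called (-0.72; edgeR adjusted p = 0.075). Sox9 UMIs were found in 13 of 65 (20%) and 13 of 97 (13.4%) members against 23 of 65 (35.4%) and 41 of 97 (42.3%) matched cells at 3000 UMIs. Gpha2 stood at 96.3 and 383 CPM against 319 and 514 CPM, and its log2 fold change of -0.72 ± 0.23 (SE; edgeR adjusted p = 0.0265) depended on the choice of comparison cells. It was -0.38 when members were matched within their keratin class and -0.14 against all cells with 5 or more proliferation UMIs, both not called.

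Most basal adhesion genes were not called. Of 18 tested, Krt5 and Cd44 were higher and 0 were lower, against 12.7% and 11.2% of all genes. The median log2 fold change was 0.01. Krt5 stood at 7309 and 7461 CPM against 4763 and 4644 CPM, a log2 fold change of 0.82 ± 0.21 (SE; edgeR adjusted p = 0.00412), and Cd44, a hyaluronan receptor, rose by 0.60 ± 0.21 (SE; edgeR adjusted p = 0.0402). The call of Cd44 ended under 6 alternatives, among them thinning (0.15; edgeR adjusted p = 0.77), no filter on low counts (0.0835) and DESeq2 (0.895), and that of Krt5 ended against cells with 1 to 4 proliferation UMIs (0.46; 0.0978). Krt14, the partner of Krt5, stood at 9687 and 3473 CPM against 6846 and 5233 CPM, higher in the members of library 1 and lower in those of library 2 (0.12 ± 0.24, not called). The laminin-332 genes Lama3 and Lamb3 were split in the same way and not called (Lama3 was called higher under 5 alternatives), Lamb3 at 208 and 53.8 CPM against 57.2 and 102 CPM. In library 1, 5 members held 71% of the Lamb3 UMIs. Trp63, the p63 gene of basal identity, was at 93.3 and 138 CPM against 157 and 181 CPM (-0.37 ± 0.22, not called).

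Genes of the cycle outside the rule were low in members. They move with the genes of the rule, so their values are given without a test. Among the 12 genes with the largest fall, several act in mitosis. Prc1, which bundles the central spindle, stood at 12 and 15.9 CPM against 548 and 556 CPM. Plk1, a mitotic kinase, stood at 6.02 and 1.99 CPM against 166 and 149.6 CPM, and Aspm, a spindle pole protein, at 3.01 and 1.99 CPM against 154 and 181 CPM. Kif22 and Lockd had 0 UMIs in the members of both libraries and were at least 29.3-fold and 16.3-fold lower against the floor of 3 UMIs. Kif15, Knl1, Cep55, Kif20a, Ncaph and Mxd3 were also among them. Replication-dependent histones were low too: Hist1h1b, a linker histone, stood at 24.1 and 19.9 CPM against 1505 and 1611 CPM. The variant H2afz was less depleted, at 590.0 and 439 CPM against 2077 and 2259 CPM.

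S-phase genes were low to a smaller degree than G2/M genes. The median log2 fold change was -1.89 over 36 tested S-phase genes and -4.20 over 44 tested G2/M genes (-4.09 with genes at 0 set to their bound). The helicase subunit Mcm6 stood at 45.2 and 53.8 CPM against 114 and 116 CPM, and Pcna, the replication clamp, at 36.1 and 27.9 CPM against 87.3 and 77.8 CPM. A few members had an S-phase profile: 7 of 65 in library 1 and 8 of 97 in library 2 had 7 or more S-list UMIs, the lower quartile of the matched cells. Their median S-list count was 16 and 20.5 UMIs, and the median over all matched cells was 11. Since the cut at 7 chose these members and not the matched cells, the medians are not a like comparison. These 15 members had less surface RNA at the median, with medians of 15 and 23 surface list UMIs against 49 and 56 in the other members.

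**Figure D3:**
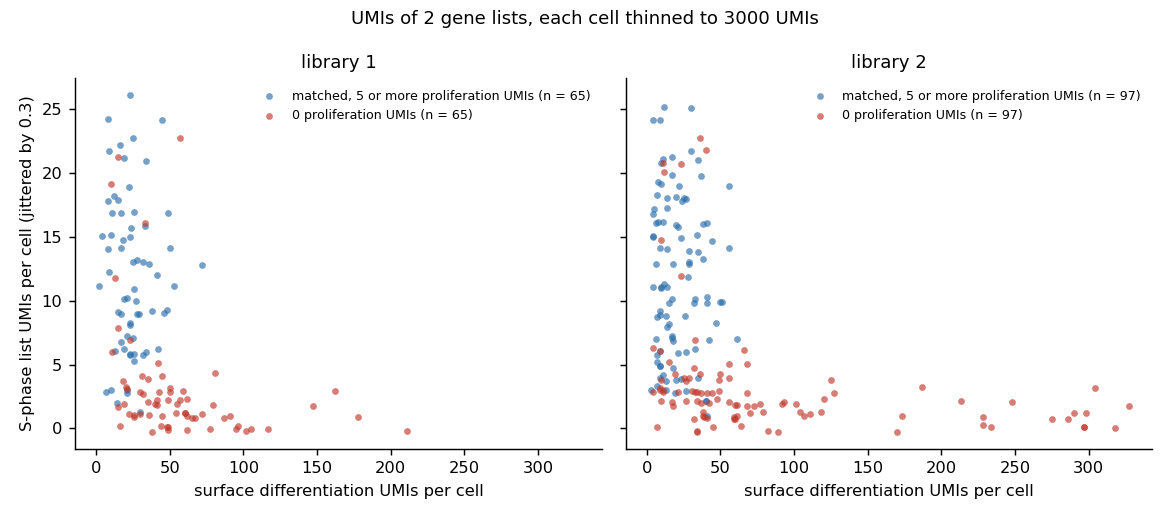
UMIs of the S-phase list (vertical, jittered) against UMIs of the surface differentiation list (horizontal) in each cell thinned to 3000 UMIs, red for cells with 0 proliferation UMIs and blue for depth-matched cells, library 1 left and library 2 right. The 15 members with 7 or more S-list UMIs have at most 57 surface UMIs in library 1 and 40 in library 2, and those with the highest surface counts, up to 211 and 327 UMIs, lie near 0 on the S-phase axis.

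Regulators of G1 were mixed. Cdkn1a, which encodes the CDK inhibitor p21, stood at 189.7 and 197 CPM against 66.2 and 31.9 CPM, a log2 fold change of 2.23 ± 0.27 (SE; edgeR adjusted p = 2.98e-07). It was found in 19 of 65 (29.2%) and 32 of 97 (33%) members against 12 of 65 (18.5%) and 4 of 97 (4.12%) matched cells at 3000 UMIs. Cdkn2b, which encodes p15, had 9 and 37 UMIs against 5 in both matched sets and rose by 2.28 ± 0.49 (SE). It passed the filter through the members alone and is given without a p. Mdm2, a p53 target and inhibitor, rose by 1.29 ± 0.40 (SE; edgeR adjusted p = 0.0176). Cdkn2d, Cdkn2c, Rbl1 and Cdk4 were lower, with log2 fold changes of -2.96, -2.90, -1.69 and -1.14, so 3 of 19 tested genes were higher and 4 lower, against 12.7% and 11.2% of all genes. DESeq2 called Cdkn1a higher and Cdkn2d lower, and gave adjusted p of 0.446 for Cdkn2b, 0.738 for Mdm2, 0.0609 for Cdkn2c, 0.832 for Rbl1 and 0.255 for Cdk4. Cyclin D1 (Ccnd1) stood at 418 and 548 CPM against 515 and 528 CPM (0.06 ± 0.19, not called), and Cdkn1b, which encodes p27, was at -0.23 and not called.

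Among histones that can be polyadenylated or are made outside S phase, values went both ways. H2afj, a variant linked to senescence and differentiation, rose by 0.87 ± 0.22 (SE; edgeR adjusted p = 0.00418). Hist1h4i, H1f0, H3f3b and H2afy fell, so 2 of 8 tested genes were higher and 4 lower, against 12.7% and 11.2% of all genes. The 2 higher ones were H2afj and the given marker Hist1h2bc. DESeq2 called H3f3b lower and 0 higher (adjusted p = 0.605 for H2afj). H3f3b, an abundant H3.3 gene, stood at 2321 and 1874 CPM against 3959 and 3288 CPM, a log2 fold change of -0.62 ± 0.20 (SE; edgeR adjusted p = 0.0216). Set against cells with 1 to 4 proliferation UMIs, H1f0 and H3f3b had log2 fold changes of 0.23 and 0.01, H2afj of 0.43 (edgeR adjusted p = 0.179) and Hist1h2bc of 0.79 (0.0692), and none of the 4 was called.

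Growth genes of the nucleolus were lower. Of 10 tested, 7 were lower and 0 higher by edgeR, against 11.2% and 12.7% of all genes. Their median log2 fold change was -0.82, while DESeq2 called 0 of them (4 lower at an unadjusted p under 0.05). Ncl, which encodes nucleolin, stood at 455 and 475 CPM against 1063 and 829.5 CPM, a log2 fold change of -0.84 ± 0.19 (SE; edgeR adjusted p = 0.00149). Npm1 stood at 494 and 449 CPM against 948 and 766 CPM and fell by 0.69 on the log2 scale (SE 0.19; edgeR adjusted p = 0.00698). Nop56, a box C/D snoRNP protein, stood at 54.2 and 43.9 CPM against 145 and 122 CPM. Both member libraries lay below both matched libraries for each of these 3 genes, while 58% of all genes tested did not overlap in either direction. Of 87 tested ribosomal protein genes, edgeR and DESeq2 called 0, also at an unadjusted p under 0.05, and their median log2 fold change was -0.09.

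Genes of the actin cytoskeleton went both ways. Tmsb4x, which encodes the actin-binding thymosin beta-4, stood at 16169 and 22912 CPM against 10452 and 10319.5 CPM and rose by 1.06 ± 0.22 (SE; edgeR adjusted p = 0.000753). Actb, which encodes beta-actin, rose by 0.61 ± 0.21, while the cofilin gene Cfl1 was lower, with a log2 fold change of -0.84 ± 0.22. DESeq2 gave adjusted p of 2.74e-05, 0.0513 and 0.566 for these 3 genes, so Tmsb4x alone passed with both tools. Of the immediate early genes, 4 of 17 tested were higher (Fosl2 0.96, Zfp36 0.89, Klf6 and Junb 0.60) and 0 lower, against 12.7% and 11.2% of all genes. DESeq2 called 0 of them, with 1 higher at an unadjusted p under 0.05. Fos stood at 1201 and 299 CPM against 1285 and 405 CPM and was not called. In the Notch list, the ligand gene Jag2 fell by 1.42 on the log2 scale (6.02 and 59.8 CPM against 84.3 and 126 CPM; edgeR adjusted p = 0.00483; DESeq2 adjusted p = 0.209), and the other 8 tested genes, Notch1 and Hes1 among them, were not called.

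The members were not uniform in surface RNA. The surface list gave a median of 48 and 49 UMIs per member at 3000 UMIs against 23 and 17 per matched cell, with maxima of 211 and 327 against 72 and 61. Above the matched maximum lay 14 of 65 members (21.5%) and 38 of 97 (39.2%). Members were split into terciles by this list, and since the split uses the list, the values by tercile are a description. In the highest tercile the median Mal count was 6 and 32 UMIs against 0 and 0 in the lowest, and the median Krt6b count 11 and 19.5 against 0 and 0. Krt14 ran the other way, with medians of 31.5 and 24 UMIs in the lowest tercile and 4 and 0 in the highest.

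Lineage also differed with surface RNA. Krt12-dominant cells made up 14 of 22, 21 of 22 and 17 of 21 members from the lowest to the highest tercile in library 1. In library 2 they made up 9 of 33, 21 of 32 and 25 of 32. Gpha2 had a mean of 1.18 and 3.91 UMIs in the lowest tercile and 0.143 and 0.125 in the highest. No Psca UMI was found in the lowest and middle terciles of either library. Hist1h2bc and Rhob did not follow 1 order in both libraries. From the lowest to the highest tercile the means were 0.273, 0.364 and 0.238 Hist1h2bc UMIs in library 1 and 0.0909, 0.125 and 0.25 in library 2. The means of Rhob were 0.682, 0.909 and 0.619 UMIs in library 1 and 0.273, 0.375 and 0.656 in library 2, so both genes were highest in the highest tercile of library 2 and in the middle tercile of library 1.

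Ribosomal protein RNA was lower where surface RNA was higher. Its median was 692, 680 and 502 UMIs per 3000 from the lowest to the highest tercile in library 1, and 698, 564 and 193 in library 2. The lowest matched cell had 401 and 380 such UMIs, and 8 of 65 and 32 of 97 members lay below it. Of these, 7 and 27 were also above the matched maximum of surface RNA. Their median mitochondrial share was 2.76% and 2.32%, against 2.25% and 3.74% over all members. The part of this difference in the surface result was not tested.

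Just outside the rule, levels dropped steeply for some genes and less for others. All kept cells were put in bins of 0, 1 to 2, 3 to 4, 5 to 9 and 10 or more proliferation UMIs. These bins hold 65, 73, 129, 321 and 2083 cells in library 1 and 97, 63, 69, 219 and 1997 in library 2, and they are not matched on depth. Muc4 stood at 328 CPM in the members of library 1 and at 37.4 CPM in cells with 1 to 2 proliferation UMIs. In library 2 the same step went from 668 to 413 CPM and then to 35.6 CPM at 3 to 4. Slurp1 went from 1695 to 859.9 CPM and from 2363 to 1186 CPM. S-phase list RNA was lowest at 0, with 966 and 1063 CPM. It was higher at 3 to 4, with 5090.3 and 5848 CPM, than at 10 or more, with 3005 and 3201 CPM. Npm1 also peaked at 3 to 4, at 1323 and 968 CPM.

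**Figure D4:**
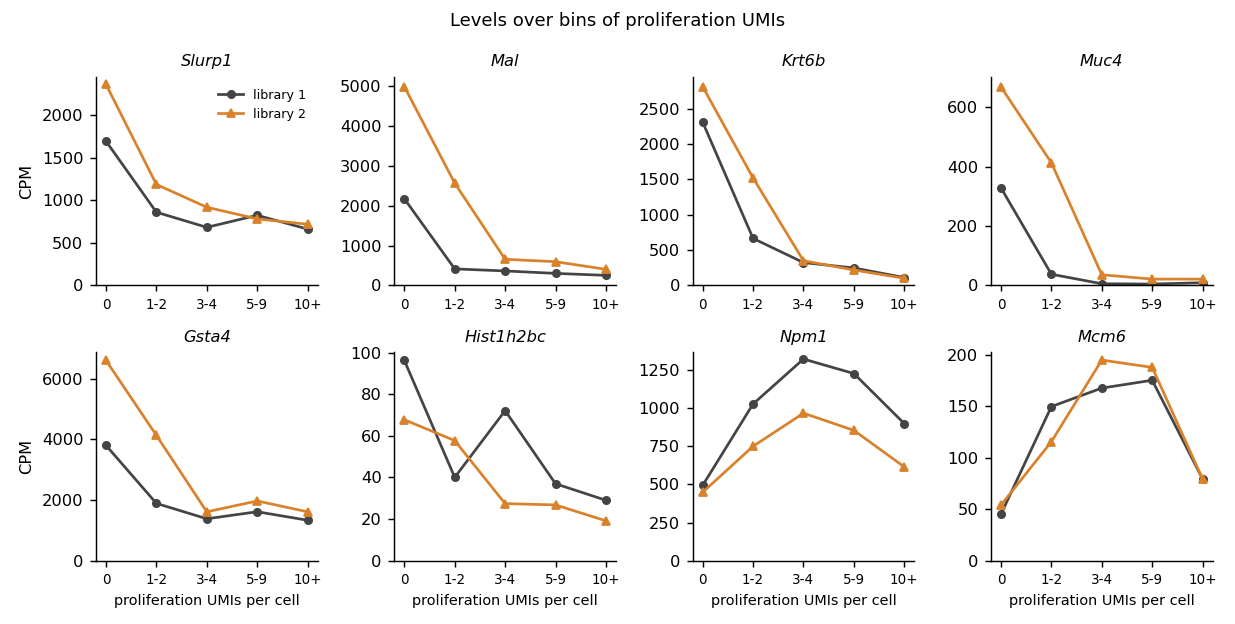
Level of 8 genes (CPM of summed UMIs, linear axes from 0) over bins of proliferation UMIs per cell, black circles for library 1 and orange triangles for library 2. Slurp1, Mal, Krt6b, Muc4 and Gsta4 are highest at 0, Npm1 peaks at 3 to 4 in both libraries, and Mcm6 is higher at 3 to 9 than at 0 or at 10 or more.

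The shift in surface genes was also present among Krt12-dominant cells alone, so with the keratin class the same in both states. The class was taken here from all UMIs of a cell, without thinning, which gave 53 and 55 members. Matched within it, 550 of 4146 genes were higher (13.3%) and 466 lower (11.2%). All 26 surface list genes tested there, of 56 listed, were higher and 0 lower. Here too, a gene that passed the filter only through the members had to differ. This fit also rests on 4 sums with 1 residual degree of freedom. Slurp1, a given marker in this list and so without a p, rose by 1.62 on the log2 scale. Mal rose by 3.86 (edgeR adjusted p = 1.12e-33) and Krt13 by 6.64. Whether Krt13 passed the filter of this fit through the members alone was not checked, so it is given without a p. Sox9 fell by 1.05 on the log2 scale (edgeR adjusted p = 0.0239), whereas Gpha2 was not called (0.482). Krt15-dominant members numbered 12 in library 1, under the minimum of 20 cells a sum, so no fit was made for them and no difference between the classes was tested.

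Markers of other cell types were at or near 0. All 7 keratocyte and all 4 vascular markers had 0 UMIs in members and matched cells. The 11 immune markers summed to 1 and 14 UMIs in members against 0 and 26 in matched cells, and Ptprc was found in 0 of 65 and 1 of 97 members without thinning. Of 5 epithelial markers, Perp, a desmosomal p53 target, and Krt5 were higher, and Epcam, Cdh1 and Krt14 were not called, although Cdh1 was called higher under 6 alternatives (0.67 with 3 matched cells per member; edgeR adjusted p = 0.00417). Leaving out cells with a UMI of any of 8 non-epithelial genes left 686 genes higher and 627 lower. Gm42418, which carries ribosomal RNA sequence, stood at 12243 and 13538 CPM against 7842 and 8848 CPM, a log2 fold change of 0.79 ± 0.21 (SE; edgeR adjusted p = 0.00669) that was 0.07 against cells with 1 to 4 proliferation UMIs, and Malat1, a nuclear RNA, at 20585 and 18195 CPM against 14989 and 13636 CPM (0.60). Leaving out cells with over 5% Gm42418, a choice made after the data were seen, left 711 genes higher and 630 lower. The part of these RNAs in the other results was otherwise not tested. No doublet caller was run. Without the 3% of cells with most UMIs, 710 genes were higher and 660 lower.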

How the data were processed

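The authors deposited 1 matrix of whole-number UMI counts per gene and barcode for both libraries. The chemistry was Chromium 3' v3 of 10x Genomics, per the labels' protocols. Cell Ranger 3.1.0, Seurat 5.0.0 and the build GRCm38 are named in the submitters' processing notes, without their roles. How cells were called, and whether depth was equalised, is not given in the sources used here. The matrix held 31053 genes, and library 1 had 19001107 UMIs in 3458 barcodes and library 2 18030874 in 3294. Of all barcodes, 475 had under 500 genes, 311 had 20% or more mitochondrial UMIs, and 1072 of the rest had under 3000 UMIs. The libraries share 5 barcode sequences, none of them a member's. Doublets were not called.

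Members were matched 1 to 1 with comparison cells on log2 total UMIs within a library by optimal assignment. Counts were summed per library and state and tested in R 4.3.3 with edgeR 4.0.16, blocking on the library, by the robust quasi-likelihood test after filterByExpr and TMM scaling. The 7 proliferation genes were left out of the fit. DESeq2 1.42.0 was an alternative. Standard errors of edgeR were taken from the fold change and F. The fits were tested on simulated data. Shares were computed after thinning each cell to 3000 UMIs. CPM values were computed here from the summed UMIs.

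Named genes were the 3 given markers, the 12 largest log2 fold changes per direction among called genes that had 1 sign in both libraries and reached 50 CPM in the higher state of both (outside the proliferation, S-phase, G2/M and replication histone lists), and called members of the gene lists. Some named genes and 1 gene list are not reported here. Uncalled members named in the text were chosen after their values were seen. The members and lists were chosen with earlier results of these data known. Fits within the Krt15-dominant class, and the difference between classes, were not run, because 1 sum had 12 cells against a minimum of 20. Alternatives are listed in the closing section.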

Additional observations from a re-analysis of the deposited data

How the results depend on the processing

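Counts of called genes depended most on the test and on depth. The 703 higher and 616 lower genes became 149 and 142 with DESeq2. They became 322 and 325 with every cell thinned to 3000 UMIs, where 3617 genes could be tested. With no replicate block, so that the libraries were not paired, 442 genes were higher and 456 lower, all among the main calls. Against all cells with 5 or more proliferation UMIs, without matching, 1011 were higher and 999 lower of 11546 tested, and the Krt12-dominant share of the comparison cells in library 2 was 66.7%. Within Krt12-dominant cells, DESeq2 gave 105 higher and 122 lower, and the fit with no replicate block 339 higher. The cause of these differences was not tested.

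The other alternatives were 3 comparison cells per member, matching within the keratin class, comparison cells with 10 or more or with 1 to 4 proliferation UMIs, a mitochondrial limit of 10%, no filter on low counts, and leaving out cells with non-epithelial UMIs, with most UMIs or with much Gm42418. They kept both counts within 1.5 times. No gene was called in the opposite direction under any of these fits. Of 200 called genes named or listed, 3 changed sign against cells with 1 to 4 proliferation UMIs, namely H1f0 (0.23), H3f3b (0.0066) and Tubb4b (0.14), none of them called there. DESeq2 lost 93 of the 200 calls, the fit with no replicate block 45 and thinning 25. With each library alone there is no test: 80 of the 200 log2 fold changes in library 1 and 48 in library 2 lay further from the main value than 1 SD of the libraries, and none changed sign. Members are few and shallow, so genes under the filter were not testable at this depth.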
